A study of Mus musculus with 6 samples.

Results

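The endoplasmic reticulum (ER) folds proteins that enter the secretory pathway, and 10 genes of its folding machinery and of the unfolded protein response were followed through photo-isolated areas of diseased mouse hearts. They were chosen by name, for their role, out of 17145 genes in the count table: the chaperones *Hspa5*, *Hsp90b1*, *Calr* and *Canx*, the disulfide isomerases *Pdia3*, *Pdia4* and *Pdia6*, and the response genes *Xbp1*, *Atf6* and *Herpud1*. None of the 9 that could be tested passed the threshold between areas of high and low Atf3, and their estimates lay on both sides of 0.

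In photo-isolation chemistry, mRNA in a fresh-frozen section is copied into cDNA with photo-caged primers, and only cDNA from areas that are then lit with ultraviolet light is amplified. The areas were picked after staining for Atf3, a stress-induced transcription factor, in hearts of FS6KD mice of a mixed C57BL/6J and 129/Ola background, whose *Ndufs6*, a complex I subunit of the respiratory chain, is knocked down by a gene-trap insertion. The paper states that both the high and the low Atf3 cells were taken inside clusters positive for Atf3. Atf3 low therefore does not stand for tissue away from the Atf3 signal. All 6 libraries, 3 labelled Atf3 high and 3 labelled Atf3 low, carry this knockdown, so there is no healthy heart among them, and the labels call all of them female and the cells cardiomyocytes. The age of these mice and which heart each area came from are not given in the sources used here.
The knockdown is carried by every cell, not by cardiomyocytes alone, and an area holds whatever cells lie in it, so fewer cells of a type and less RNA per cell cannot be told apart.

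When client proteins misfold in the ER, the chaperone BiP, made by *Hspa5*, leaves the sensors it holds. The sensor ATF6 then moves to the Golgi, is cut and becomes a transcription factor, the sensor IRE1 splices *Xbp1* mRNA into the form that encodes an active factor, and the kinase PERK slows translation and raises ATF4. Cut ATF6 acts with NF-Y on the ER stress response element (ERSE) in promoters of chaperone genes. In cardiomyocytes the same membrane system also forms the sarcoplasmic reticulum, which stores and releases calcium for contraction.

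The promoters are shown first, as a description. The ERSE is known from promoters of chaperone genes, and these genes were chosen for their role, so finding it here is not independent of that choice. The RefSeq promoter windows of GRCm38.p6, from 250 bases before to 50 bases after each transcription start, held 9 of the 10 genes, and *Atf6* had no entry. The letters of the ERSE, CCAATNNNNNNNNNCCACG, were searched on both strands and stood in the windows of *Hspa5*, *Hsp90b1*, *Calr*, *Canx* and *Pdia6*. Only 39 of all 32851 promoter windows held them (0.119%). The related ERSE-II, ATTGGNCCACG, stood in 12 windows (0.0365%), among them that of *Herpud1*. The element is in capitals, read 5′ to 3′ on the strand that carries it, with 5 bases on either side in lower case.
Hspa5, ERSE at chr2:34772020-34772048, plus strand: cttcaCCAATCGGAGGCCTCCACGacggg
Hsp90b1, far ERSE at chr10:86705633-86705661, minus strand: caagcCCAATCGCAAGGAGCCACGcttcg
Hsp90b1, near ERSE at chr10:86705528-86705556, plus strand: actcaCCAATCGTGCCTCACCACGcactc
Calr, ERSE at chr8:84847070-84847098, plus strand: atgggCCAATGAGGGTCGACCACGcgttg
Canx, ERSE at chr11:50325795-50325823, minus strand: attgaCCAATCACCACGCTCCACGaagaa
Pdia6, ERSE at chr12:17266486-17266514, plus strand: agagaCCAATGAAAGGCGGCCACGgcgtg
Herpud1, ERSE-II at chr8:94386372-94386392, plus strand: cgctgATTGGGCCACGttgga

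The elements began between 52 bases (*Herpud1*) and 212 bases (the far one of *Hsp90b1*) before the RefSeq start, with that of *Hspa5* at 65, *Pdia6* at 98, the near one of *Hsp90b1* at 107, *Canx* at 145 and *Calr* at 162. The element of *Calr* and the near one of *Hsp90b1* lay on the strand opposite to the gene. That of *Hspa5* was inside the bounds of the gene in GENCODE M21, whose first transcript starts earlier, and the other 6 were upstream of the annotated gene. With 1 mismatch allowed in the 10 fixed letters, 494 windows (1.50%) and 8 of the 9 member windows matched, *Xbp1* being the exception. The best matches of *Pdia3* and *Pdia4* then differed from the element in its last letter.
Pdia3, ERSE with 1 mismatch at chr2:121413868-121413896, plus strand: cgcagCCAATCGGCGGCTGCCACActgcg
Pdia4, ERSE with 1 mismatch at chr6:47813597-47813625, plus strand: gaccaCCAATCACGGGCTGCCACTcggtt
None of the 9 windows held the unfolded protein response element TGACGTGG (0.676% of all windows) or the CRE TGACGTCA (1.79%), which factors of the ATF family are known to bind. A match describes letters and not binding, and a window without them may hold a variant of the element.

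**Figure D1:**
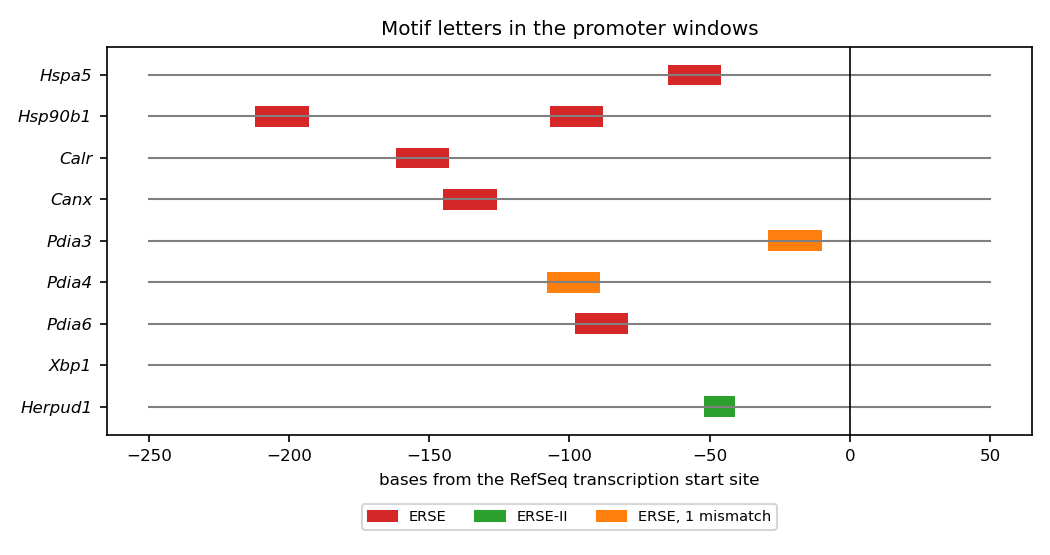
Position of the ERSE (red), the ERSE-II (green) and, for genes without an exact element, the ERSE with 1 mismatch (orange) in the promoter windows of the 9 genes with a RefSeq entry, in bases from the transcription start (x axis; one grey line per gene). The exact elements start between 52 and 212 bases before the start, and *Xbp1* has none.

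The Atf3 high libraries held 81117 to 210588 UMIs (unique molecular identifiers, tags that count each cDNA molecule once) and the Atf3 low libraries 81917 to 171536, with 6936 to 11971 genes detected per library. Levels are given as CPM, the count relative to a common library size scaled by TMM normalization. On this scale 1 UMI was worth 4.66 to 13.6 CPM. As an approximate limit, a count of 0 was taken to allow up to 3 UMIs, or 13.97 to 40.9 CPM (counting error only). For the 7665 genes that reached a total of 10 UMIs, edgeR's quasi-likelihood test called 7 genes at a Benjamini-Hochberg adjusted p under 0.05 (0.0913%). Of the 7665, 444 had an unadjusted p under 0.05 (5.79%), and in 840 the CPM of the groups did not overlap (11.0%). Overlap was judged on CPM throughout, so the UMIs of a gene can overlap where its CPM do not. *Atf3* itself had 50, 7 and 25 UMIs in Atf3 high, against 35, 0 and 8 in Atf3 low (log2 fold change 0.40, SE 0.65, adjusted p = 0.996, edgeR), and *Ndufs6* had 2, 0 and 3 against 0, 0 and 0. Atf3 high replicate 2, the shallowest library, went against its label: 16 UMIs came from the Y-linked *Ddx3y* and *Eif2s3y* and 0 from *Xist*, while the other 5 libraries held 3 to 26 UMIs of *Xist* and at most 1 of that pair. Values without this library are therefore given for the 10 genes together, for *Atf6* and for each list. Summed cardiomyocyte markers were at 19898, 20517 and 38065 CPM in Atf3 high, against 41213, 43339 and 54286 CPM in Atf3 low, so the groups did not overlap. Single markers differed in this. *Myh6* was without overlap, at 1992, 2595 and 4546 against 10694, 9060 and 12244 CPM (log2 fold change −1.81, edgeR adjusted p = 0.00512). *Tnnt2* overlapped, at 5020, 4393 and 11524 against 5647, 12539 and 9465 CPM (−0.40). *Tnni3* overlapped too, at 2668, 3765 and 5380 against 4164, 4113 and 7177 CPM (−0.39). All 7 of the cardiomyocyte markers in the table were detected in every library. Summed fibroblast markers were at 5188, 2788 and 1099 CPM in Atf3 high, against 2574, 1493 and 531 CPM in Atf3 low. The part of either marker list in the results below was not tested.

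*Hspa5* (chr2:34771970-34777547, GRCm38) encodes BiP, the main Hsp70 chaperone of the ER lumen and a widely used readout of the unfolded protein response. It was counted 132, 28 and 80 times in the Atf3 high libraries, against 97, 54 and 23 times in the Atf3 low libraries. On the CPM scale this was 671, 338 and 373 in Atf3 high, against 654, 450 and 313 in Atf3 low. The groups covered nearly the same range, with replicate 1 the highest of each. The means were 460 ± 183 and 472 ± 171 CPM (SD, n = 3 each), the log2 fold change of Atf3 high over Atf3 low was −0.04 (SE 0.42, 95% interval −0.88 to 0.80), and the adjusted p of edgeR was 0.996.

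*Hsp90b1* (chr10:86690209-86705509) encodes GRP94, the ER member of the Hsp90 chaperones, whose promoter holds both elements shown above. Its level was 224, 145 and 93.2 CPM in Atf3 high, against 209, 150 and 81.7 CPM in Atf3 low. Each of the 3 replicate numbers thus had nearly the same level in both groups, and the log2 fold change was 0.03 (SE 0.53, interval −1.04 to 1.10, edgeR adjusted p = 0.996). Its gene overlaps the pseudogene *1810014B01Rik* on the opposite strand, which shares 273 identical bases with it and held 8 UMIs against 131 of *Hsp90b1*.

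*Calr* (chr8:84841850-84846934) and *Canx* (chr11:50293961-50325673) encode calreticulin and calnexin, the lectin chaperones that hold newly glycosylated proteins until they are folded. *Calr* was at 132, 72.4 and 65.2 CPM in Atf3 high, against 87.6, 58.4 and 40.9 CPM in Atf3 low. The Atf3 high library was above the Atf3 low library of the same number in each case, but the groups overlapped and the log2 fold change was 0.50 (SE 0.66, interval −0.83 to 1.83, edgeR adjusted p = 0.996). *Canx* was at 224, 241 and 242 CPM in Atf3 high, against 216, 175 and 204 CPM in Atf3 low, the only one of the 9 genes tested whose groups did not overlap. The means were 236 ± 10.5 and 198 ± 20.9 CPM (SD, n = 3), and the two-sided exact permutation test on log2(CPM + 4) gave p = 0.1, the smallest that 3 against 3 libraries allow. In edgeR, which takes its spread from all genes, the log2 fold change of *Canx* was 0.25 (SE 0.47, interval −0.69 to 1.19) with an adjusted p of 0.996. With 1 of 9 genes without overlap against 11.0% of all genes tested, the count is near the background.

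The disulfide isomerases make and reshuffle disulfide bonds of folding proteins, and their counts here were low. *Pdia6* (chr12:17266545-17284770) had 20, 5 and 8 UMIs in Atf3 high, against 4, 9 and 2 in Atf3 low, or 102, 60.3 and 37.3 against 27.0, 75.1 and 27.2 CPM. The groups overlapped, and the log2 fold change of 0.60 (SE 0.78) had an interval from −0.97 to 2.17. *Pdia3* (chr2:121413775-121438687), which works with calnexin and calreticulin, had 4, 0 and 3 UMIs against 0, 4 and 4. A library at 0 stood in each group, and the log2 fold change was −1.003 (SE 1.25, interval −3.53 to 1.52). *Pdia4* (chr6:47796141-47813430) had 2, 0 and 0 UMIs against 1, 4 and 1, under the minimum of 10 in total, and was not tested. A difference in *Pdia3* or *Pdia4* was not detectable at this depth, and *Pdia3* overlaps *Catsper2* (6 UMIs) on the opposite strand.

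The response genes followed no common direction. *Xbp1* (chr11:5520659-5525893), whose spliced mRNA encodes a factor that drives chaperone and degradation genes, had 1, 1 and 5 UMIs in Atf3 high, against 5, 0 and 0 in Atf3 low. These 12 UMIs put the log2 fold change at 0.08 with an SE of 1.45 (interval −2.84 to 3.00), and counts per gene do not tell spliced from unspliced *Xbp1* mRNA.

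*Atf6* (chr1:170704674-170867771), the membrane-bound sensor and factor, was at 193, 48.3 and 130 CPM in Atf3 high, against 270, 83.4 and 409 CPM in Atf3 low. Replicate 2 was the lowest library of each group and the groups overlapped. The means were 124 ± 72.6 and 254 ± 163 CPM (SD, n = 3), and the log2 fold change of −0.94 (SE 0.54, interval −2.03 to 0.15) had the smallest p of the 9 genes, 0.0900 unadjusted and 0.964 adjusted in edgeR, while the exact permutation test gave p = 0.4. By unadjusted p, *Atf6* ranked 710 of the 7665 genes. Its estimate was −0.63 with Atf3 high replicate 2 left out, −0.50 without Atf3 low replicate 3, the library where it was highest, −1.39 without Atf3 high replicate 1 and −1.42 when Atf3 low replicate 2 was left out. The unadjusted p of edgeR was under 0.05 in 3 of the 13 alternatives, the last 2 of these and a fit with the replicate number as a block (−0.99), and no adjusted p was.

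*Herpud1* (chr8:94386438-94395377), a membrane protein of ER-associated degradation that is induced when unfolded proteins build up, was at 86.4, 84.5 and 210 CPM in Atf3 high, against 60.6, 100 and 177 CPM in Atf3 low. Replicate 3 was the highest library of each group. The log2 fold change was 0.26 (SE 0.58, interval −0.91 to 1.44, edgeR adjusted p = 0.996).

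**Figure D2:**
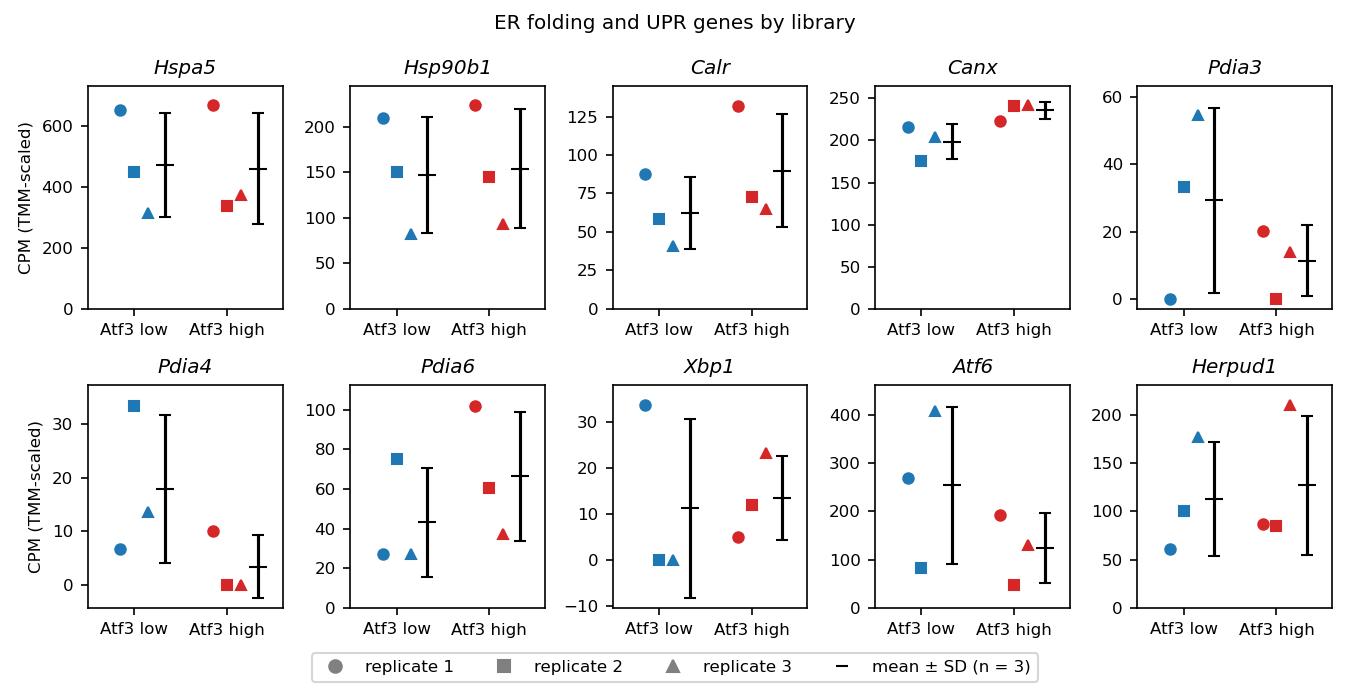
CPM (y axis, TMM-scaled) of the 10 genes in each Atf3 low (blue) and Atf3 high (red) library, with the marker shape giving the replicate number and the black bar the mean ± SD of 3 libraries. Only *Canx* has all Atf3 high libraries above all Atf3 low libraries among the genes tested, and *Hspa5* and *Hsp90b1* cover nearly the same range in both groups.

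The spread within a group had a recurring order for several of these genes. *Hspa5*, *Hsp90b1* and *Calr* were highest in replicate 1 of both groups, and in Atf3 low all 3 were lowest in replicate 3. The fibroblast markers given above were likewise highest in replicate 1 and lowest in replicate 3 of both groups. *Herpud1* was highest in replicate 3 of both groups. As the labels do not say that a number marks a shared heart or day, the libraries were not paired, and whether the fibroblast content moved these chaperones was not tested.

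Set within each library, UMIs of *Atf6* per UMI of *Hspa5* were 0.288, 0.143 and 0.350 in Atf3 high, against 0.412, 0.185 and 1.30 in Atf3 low. Atf3 low replicate 3 stood above the other 5 libraries in this ratio, with 30 UMIs of *Atf6* and 23 of *Hspa5*. UMIs of *Herpud1* per UMI of *Hspa5* were 0.129, 0.250 and 0.563 in Atf3 high, against 0.0928, 0.222 and 0.565 in Atf3 low. This second ratio was nearly the same in both groups at each replicate number and ranged widely within each group.

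Together the 10 genes held 328, 83 and 255 UMIs in Atf3 high, against 232, 139 and 97 in Atf3 low. Their share of all UMIs was 0.177% (exact Clopper-Pearson 95% interval 0.159 to 0.198), 0.102% (0.0815 to 0.127) and 0.121% (0.107 to 0.137) in Atf3 high. In Atf3 low it was 0.135% (0.118 to 0.154), 0.111% (0.0931 to 0.131) and 0.118% (0.0960 to 0.144). Only Atf3 high replicate 1 had an interval above those of all other libraries, and the 3 Atf3 low shares lay inside the range of the Atf3 high shares. The summed level was 1285 ± 343 CPM in Atf3 high, against 1348 ± 203 CPM in Atf3 low (SD, n = 3), a log2 difference of −0.09, or 0.06 without Atf3 high replicate 2.

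Of the 9 genes tested, 6 were estimated higher in Atf3 high (66.7%, beside 55.2% of all genes tested), against 3 lower. The median log2 fold change of the 9 was 0.08, beside 0.11 for all genes tested. None was called, against 0.0913% of all genes, and none had an unadjusted p under 0.05, against 5.79%. The intervals show what these libraries could not tell: for *Hspa5*, the gene with the narrowest one, a log2 change of up to 0.80 higher or 0.88 lower remained inside it. Without Atf3 high replicate 2, 7 of 9 were estimated higher, the median was 0.12 and none was called.

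**Figure D3:**
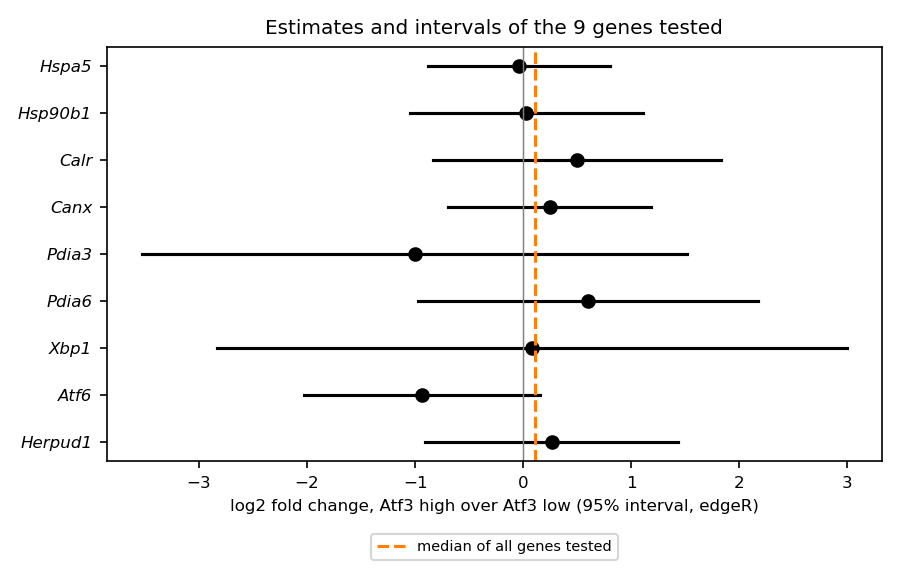
Log2 fold change of Atf3 high over Atf3 low (x axis) for the 9 genes tested by edgeR, with points for estimates, bars for 95% intervals and a dashed line at the median of all genes tested, 0.11. Every interval includes 0, from the narrowest (*Hspa5*, −0.88 to 0.80) to the widest (*Xbp1*, −2.84 to 3.00).

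By a rule that ranks genes of at least 100 UMIs by the Pearson correlation of their log2(CPM + 4) with that of the summed 10 genes over the 6 libraries, the closest of 1019 genes were *Rab14*, *App*, *Eif4h*, *Slc25a3* and *Hnrnpa2b1*. The values ran from 0.98 (*Rab14*) to 0.92 (*Hnrnpa2b1*) and are given without a p, since these are the highest of many over few libraries that share their depth.

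Other folding factors of the ER lumen were mostly estimated higher in Atf3 high, and none was called. Of 33 tested (42 of the 44 listed were in the table), 25 were higher (75.8%, beside 55.2% of all genes tested) and 8 lower. The median log2 fold change was 0.41 against 0.11 for all genes. Of the 33, 2 had an unadjusted p under 0.05, both higher, which is 6.06% against 5.79% of all genes. *Ero1a*, the oxidase that recharges the disulfide isomerases, had 20, 12 and 7 UMIs in Atf3 high, against 5, 3 and 1 in Atf3 low (log2 fold change 1.78, SE 0.82, unadjusted p = 0.0349 and adjusted p = 0.819 in edgeR). *Creld2*, an ER protein with isomerase activity, had 9, 3 and 7 UMIs against 1, 1 and 0 (2.58, SE 1.25, unadjusted p = 0.0452 and adjusted p = 0.853 in edgeR). *Dnajc3*, a co-chaperone of BiP, had 10, 7 and 8 UMIs against 4, 1 and 0 (1.96, SE 1.03, unadjusted p = 0.0626 and adjusted p = 0.912 in edgeR). The groups of *Creld2* and *Dnajc3* did not overlap. The limit for their count of 0 in Atf3 low replicate 3 was 40.9 CPM. Atf3 high replicate 3 was under it in both, at 32.6 CPM (*Creld2*) and 37.3 CPM (*Dnajc3*). *Manf*, a secreted ER stress factor named after its values were seen, also had groups without overlap in CPM. It had 3, 1 and 1 UMIs in Atf3 high, against 7, 4 and 2 in Atf3 low. Such genes were 3 of 33 (9.09%) beside 11.0% of all genes, near the background. Without Atf3 high replicate 2 the median of the list was 0.36, and 0 of 31 genes tested then had an unadjusted p under 0.05 in edgeR. The median moved most to 0.18 without Atf3 high replicate 1 and to 0.75 without Atf3 high replicate 3.

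The promoters of *Creld2* and *Dnajc3* held the same element as *Hspa5*, and are shown for these genes because their groups did not overlap, a choice made after their values were seen.
Creld2, ERSE at chr15:88819515-88819543, minus strand: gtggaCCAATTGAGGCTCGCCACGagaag
Dnajc3, ERSE at chr14:118937822-118937850, plus strand: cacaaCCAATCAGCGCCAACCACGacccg
The other listed genes with an exact ERSE or ERSE-II that were counted had groups that overlapped: *Dnajb11* with 1, 5 and 2 UMIs against 2, 2 and 0, *Ero1b* with 0, 0 and 1 against 0, 4 and 0, and *Syvn1* with 1, 0 and 0 against 0, 0 and 0. *Derl3*, listed for ER-associated degradation, also had an exact ERSE but was not in the count table. Whether *Creld2* and *Dnajc3* differ from *Hspa5* in their response was not tested.

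Of the sensors and factors of the unfolded protein response, 13 of 19 in the table were tested. Of the 13, 10 were estimated higher in Atf3 high (76.9%, beside 55.2% of all genes tested), against 3 lower. The median was 0.48, and 0 had an unadjusted p under 0.05 in edgeR. *Mbtps2*, the protease that makes the second of the cuts that free ATF6, had 6, 0 and 1 UMIs in Atf3 high, against 15, 1 and 4 in Atf3 low (log2 fold change −1.99, SE 1.05, interval −4.11 to 0.14). *Wfs1*, an ER membrane protein that restrains ATF6 signalling, had 20, 12 and 9 UMIs against 3, 8 and 6 (0.78, SE 0.72). *Ppp1r15b*, a phosphatase subunit that acts on eIF2α, had 4, 3 and 6 UMIs against 3, 1 and 0 (1.27, SE 1.22). Along with *Ppp1r15b*, the groups of *Atf4* and *Atf6b*, named after their values were seen, did not overlap in CPM. This makes 3 of 13 genes (23.1%), all higher in Atf3 high, beside 11.0% of all genes. The UMIs of all 3 overlapped or tied, so the separation depended on the scaling. The lowest Atf3 high and highest Atf3 low values were 205 and 200 CPM for *Atf4*. They were 10.2 and 8.34 CPM for *Atf6b*, and 20.3 and 20.2 CPM for *Ppp1r15b*. *Atf4*, the factor downstream of PERK, had 56, 17 and 45 UMIs against 26, 24 and 9 (0.48, SE 0.48, edgeR adjusted p = 0.996), and *Atf6b*, the relative of *Atf6*, had 2, 1 and 6 against 1, 1 and 0. The other 6 genes in the table were below the minimum for the test and are named whatever their direction. *Ddit3* (2, 2 and 3 against 1, 0 and 0 UMIs) and *Trib3* (3, 2 and 2 against 1, 0 and 0), targets of ATF4, were without overlap and higher in Atf3 high. *Nfya*, a subunit of NF-Y, was without overlap and lower (0, 0 and 2 against 3, 3 and 1). *Creb3l1* (1, 0 and 0 against 2, 4 and 0), *Eif2ak3*, which encodes PERK (0, 0 and 4 against 2, 0 and 0), and *Rtcb* (2, 0 and 1 against 1, 1 and 0) overlapped. The median of the list was 0.54 without Atf3 high replicate 2, 0.82 without Atf3 high replicate 3, 0.27 without Atf3 low replicate 3 and 0.31 without Atf3 high replicate 1.

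ER-associated degradation returns misfolded proteins to the cytosol. Of its 21 genes tested, 12 were estimated higher in Atf3 high (57.1%, beside 55.2% of all genes), against 9 lower, with a median of 0.14. *Rnf139*, a ubiquitin ligase, had the only unadjusted p under 0.05, and all of its 13 UMIs came from Atf3 high replicate 1. *Edem1*, which takes glycoproteins out of the folding cycle, had 5, 1 and 14 UMIs in Atf3 high, against 1, 1 and 0 in Atf3 low. *Faf2*, a membrane adaptor, had 7, 0 and 4 UMIs against 1, 0 and 0. In CPM, though not in UMIs, the groups of *Edem1* and, in the other direction, *Ube2j1* did not overlap. *Ube2j1*, named after its values were seen, had 5, 2 and 6 against 6, 8 and 4 UMIs. For *Edem1*, 1 UMI stood for 12.1 CPM in Atf3 high replicate 2 and for 8.34 CPM in Atf3 low replicate 2. Such genes were 2 of 21 (9.52%) beside 11.0% of all genes. The median was 0.08 without Atf3 high replicate 2, with 2 of 20 genes at an unadjusted p under 0.05 in edgeR, and ran from −0.05 (without Atf3 high replicate 1) to 0.21 (without Atf3 low replicate 3) when each library was left out in turn.

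Among 30 tested genes of translocation into the ER and traffic from it, 17 were estimated higher in Atf3 high, against 13 lower. The share higher was 56.7%, beside 55.2% of all genes, and the median was 0.09. *Srp9*, a subunit of the signal recognition particle, had 13, 3 and 4 UMIs against 2, 0 and 0 (log2 fold change 2.69, SE 1.27, unadjusted p = 0.0404 and adjusted p = 0.827 in edgeR), the only one under an unadjusted 0.05. *Rpn2*, a subunit of the enzyme that attaches glycans to new proteins, had 59, 13 and 20 UMIs against 15, 5 and 9 (1.08, SE 0.58). *Lman1*, a cargo receptor from the ER to the Golgi, had 49, 4 and 15 UMIs against 9, 7 and 4 (1.11, SE 0.66). The groups of *Srp9* and of *Dad1*, a further glycan transfer subunit named after its values were seen, did not overlap, both higher in Atf3 high, which is 2 of 30 genes (6.67%) beside 11.0% of all genes. The median of this list was 0.24 without Atf3 high replicate 2, and ran from 0.06 (without Atf3 low replicate 2) to 0.43 (without Atf3 low replicate 1) when each library was left out in turn.

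Genes of the sarcoplasmic reticulum, the calcium-handling form of the same membranes, were mostly estimated lower in Atf3 high. Of 9 tested, 7 were estimated lower in Atf3 high, against 2 higher (22.2%, beside 55.2% of all genes), with a median of −0.66. Of the 9, 4 had an unadjusted p under 0.05, all lower (44.4% against 5.79%), but none passed the adjusted threshold. *Casq2*, the calcium-binding protein of the lumen, was at 610, 338 and 764 CPM in Atf3 high, against 633, 1577 and 1444 CPM in Atf3 low (log2 fold change −1.07, SE 0.40, unadjusted p = 0.00991 and adjusted p = 0.649 in edgeR). *Atp2a2*, the calcium pump, was at 2983, 2221 and 4742 CPM against 6065, 4246 and 6129 CPM (−0.72, SE 0.32, unadjusted p = 0.0308 and adjusted p = 0.810 in edgeR). *Ryr2*, the calcium release channel, was at 290, 326 and 596 CPM against 708, 826 and 667 CPM without overlap (−0.85, SE 0.40, unadjusted p = 0.0399 and adjusted p = 0.824 in edgeR). The fourth was *Pln*, the brake on that pump (−0.88, SE 0.42). Of the pair estimated higher, *Asph* (67, 27 and 74 against 40, 27 and 21 UMIs) had groups without overlap in CPM. *Pln* and *Asph* were named after their values were seen. Genes without overlap, *Ryr2* lower and *Asph* higher, were 2 of 9 (22.2%) beside 11.0% of all genes. *Ryr2* and *Pln* are also in the cardiomyocyte marker list, whose summed level was lower in each Atf3 high library than in any Atf3 low library. The median stayed below 0 when each library was left out in turn, from −1.08 (without Atf3 high replicate 3) to −0.41 (without Atf3 high replicate 2). The count of genes at an unadjusted p under 0.05 was 0 without Atf3 high replicate 2 or without Atf3 low replicate 3, 1 without Atf3 high replicate 1, 2 without either of the other Atf3 low libraries and 6 without Atf3 high replicate 3, so it turned on single libraries in both groups.

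**Figure D4:**
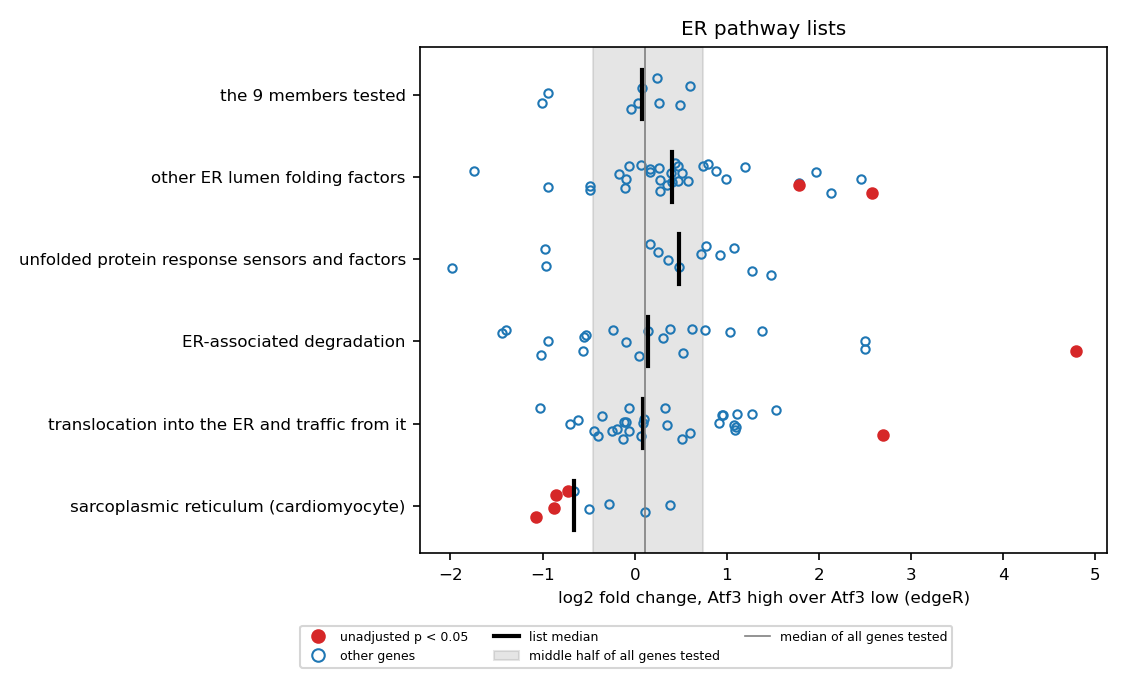
Log2 fold change of Atf3 high over Atf3 low (x axis) of every tested gene of the 10 genes and of 5 ER lists, with red points for an unadjusted p under 0.05, black ticks for list medians, a grey line for the median of all genes tested and a band for their lower to upper quartile. The medians run from −0.66 for the sarcoplasmic reticulum to 0.48 for the sensors and factors, and the point at the far right is *Rnf139*, counted in 1 library only.

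How far single libraries and settings carried the estimates can be read from the alternatives. *Calr*, *Canx* and *Pdia6* were estimated higher, and *Pdia3* and *Atf6* lower, under each alternative that could test them. *Canx* ranged from 0.04 when all libraries were thinned to 81117 UMIs to 0.46 with plain library sizes. *Hspa5*, *Hsp90b1*, *Xbp1* and *Herpud1* changed sign under at least 1 alternative, *Hspa5* among them with plain library sizes (0.18), a scaling that moved the median of all genes from 0.11 to 0.31. No member was called under any of the 13 alternatives.

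**Figure D5:**
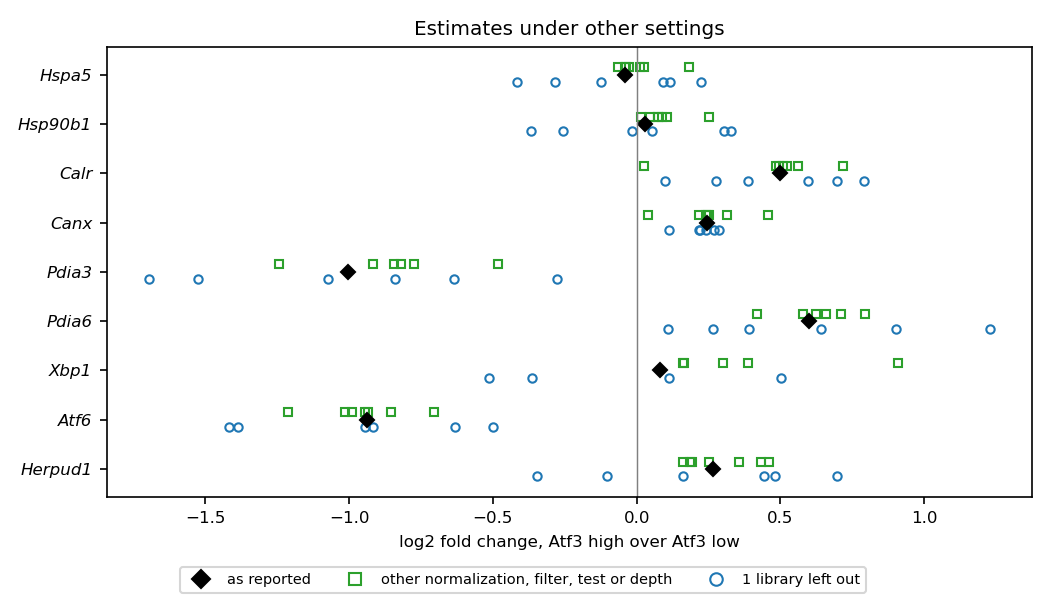
Log2 fold change of Atf3 high over Atf3 low (x axis) of the 9 genes as reported (black diamonds), under another normalization, filter, test or depth (green squares) and with 1 library left out (blue circles). The estimates of *Hspa5*, *Hsp90b1*, *Xbp1* and *Herpud1* fall on both sides of 0, and those of *Atf6* run from −1.42 to −0.50.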

How the data were processed

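The authors deposited UMI counts for each gene and library, without normalization, from CEL-seq2 libraries of photo-isolated areas. The submitters' processing notes name UMI-tools (version 1.0.0), HISAT2 (version 2.1.0) and featureCounts (version 1.6.4) with GRCm38. The annotation release, the strand setting and the handling of reads that map to several genes are not given in the sources used here, so overlapping genes and copies are uncertain.

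Groups and replicate numbers came from the labels, and the study describes the 3 libraries of a group as biological replicates. No source used here says which mouse each library came from or whether the groups share mice, so p-values measure the spread between these 6 libraries. Within groups the counts differed by more than sampling noise (3.55 to 5.07 chi-square units a degree of freedom). Genes with at least 10 UMIs in total were TMM-normalized and compared by edgeR (version 4.0.16, quasi-likelihood test, Benjamini-Hochberg) in R (version 4.3.3), without covariates; the biological coefficient of variation was 53.6%. On simulated data with this spread, the median estimate came back near the simulated fold and unchanged genes were not called, but few of the changed genes passed the adjusted threshold, so a gene without a call may still differ. Every simulated gene had the same spread, without effects of single libraries, so the lack of false calls there does not carry over to these libraries. DESeq2 (version 1.42.0), limma-trend (limma version 3.58.1), other scalings and filters, a replicate block, thinning and leaving out each library were alternatives.

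The 10 genes, the lists and the rules were chosen with earlier results of these data known. Of each list, the 3 genes of smallest p are named. After the table was seen, 3 symbols of the lists were replaced by the ones it uses (*Ero1a*, *Ero1b* and *Marchf6*), which brought *Ero1a* into the folding factors. Positions came from GENCODE M21 (17133 identifiers found, 99.93%), copies from BLAST+ (version 2.17.0; 95% identity over 200 bases) and promoters from RefSeq. The deviations of same-numbered libraries correlated at 0.09, 0.00088 and 0.07. Atf3 high replicates 1 and 3 correlated best with their own number, and replicate 2 did not. As the labels do not say what a number marks, the libraries were not paired. At number 2, Atf3 high had 16 UMIs of *Ddx3y* and *Eif2s3y* and 0 of *Xist*, against 0 and 13 in Atf3 low. By these genes number 2 does not join libraries of 1 mouse.

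Cell type content was read from marker sums, beside those given with the results. The sums ran from 899 to 1496 CPM for endothelial, 172 to 361 for macrophage, 136 to 711 for mural, 0 to 23.3 for B and plasma cell and 0 to 157 for erythrocyte markers, with overlap of the groups in each.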

Additional observations from a re-analysis of the deposited data

How the results depend on the processing

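With 13 alternatives, no member passed an adjusted p of 0.05. Against 7 genes called in all, DESeq2 called 12, limma-trend 3, thinning to the shallowest library 2, and fits without 1 library from 0 (without Atf3 low replicate 1, where 477 genes had an unadjusted p under 0.05) to 11 (without Atf3 high replicate 3). Leaving out Atf3 high replicate 1, or replicate 2 of that group, or Atf3 low replicate 3, left 1. The fit with the replicate number as a replicate block called 24 genes. The numbers are not known to pair the libraries, and by the sex-linked genes number 2 does not join libraries of 1 mouse. Atf3 high replicates 1 and 3 correlated best with their own number, and replicate 2 did not. The members' median ran from −0.26 (without Atf3 low replicate 3) to 0.25 (without Atf3 low replicate 1) when 1 library was left out, and was 0.30 with library size scaling, under which that of all genes was 0.31. The sign of *Hspa5* turned with library size scaling (0.18), with no filter on low counts (0.024) and when thinned (0.010), and it ran from −0.41 to 0.22 without 1 library. Without 1 library, *Hsp90b1* ran from −0.37 to 0.33, *Herpud1* from −0.35 to 0.70 and *Xbp1* from −0.51 to 0.50. The cause of these moves was not tested. Low counts limited *Pdia3*, *Pdia4* and *Xbp1*, and the strictest filter kept 6 of the members.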

Other observations

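Over the whole table, 27 genes had a promoter window with the exact ERSE or ERSE-II, a set formed after the files had been seen. Of the 18 tested, 13 were estimated higher in Atf3 high and 5 lower, where 55.2% of all genes tested were estimated higher. The median log2 fold change was 0.26, and 0 were called by edgeR, with 1 at an unadjusted p under 0.05 (*Creld2*). Without the members, 12 were tested, 8 higher and 4 lower, with a median of 0.27 beside 0.11 for all genes tested.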
